A study of Mus musculus with 8 samples.

Results

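The MS4A genes described here are Ms4a1, Ms4a4a, Ms4a4b, Ms4a4c, Ms4a6b, Ms4a6c, Ms4a6d and Ms4a7. They were chosen by symbol as members of 1 gene family. All 8 were found among the 13786 protein-coding genes of the deposited table, which the authors had already filtered. RNA was sequenced from CD11c+ splenocytes of 8 female mice, each 7 weeks old, which gave 4 C57BL/6 control mice and 4 B6.SLE123 mice. B6.SLE123 mice carry the lupus susceptibility intervals Sle1, Sle2 and Sle3 on the C57BL/6 background, so they are a congenic model in which many loci differ at once, and none of these intervals is on chromosome 19, where the 8 genes lie. Both strains came from the same supplier and neither was treated, and by the study's account B6.SLE123 mice of this age have no renal dysfunction or hypertension yet. In the spleens of B6.SLE123 mice the study already found more dendritic cells and plasma cells at 7 weeks. The question was how the strains differ in the RNA of splenic dendritic cells before overt disease.

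MS4A proteins span the membrane 4 times, and most members are carried by leukocytes of one or a few lineages. Ms4a1 encodes CD20, the surface antigen of B cells. Ms4a4b is known from T cells and NK cells, while Ms4a4a, Ms4a6d and Ms4a7 are known from macrophages, and Ms4a4c, Ms4a6b and Ms4a6c from myeloid cells more broadly. A preparation selected on CD11c, the product of Itgax, can hold cells of several of these lineages.

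The members did not move as a block. In B6.SLE123 mice, Ms4a7 and Ms4a6d were lower, by 2.86-fold and 1.99-fold, and Ms4a4c was higher, by 1.37-fold. At the threshold used throughout, an adjusted p of 0.05 over all genes, Ms4a1, Ms4a4a, Ms4a4b, Ms4a6b and Ms4a6c did not pass the test. Thus 2 of 8 members were lower, where 26.6% of all genes tested were, and 1 of 8 was higher, where 26.7% of all genes were. In the same 3 members the mice of both strains were fully separated, which held for 48.9% of all genes. In total 3 of 8 members were called, and 53.4% of all genes were, so the share called was not above that of the table, and the count itself marks nothing particular to the family. Levels are given as CPM, the count of a gene per 1000000 counts of a TMM-scaled library. The median log2 fold change, given throughout as B6.SLE123 over C57BL/6, was -0.12 over the members and -0.002 over all genes.

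**Figure D1:**
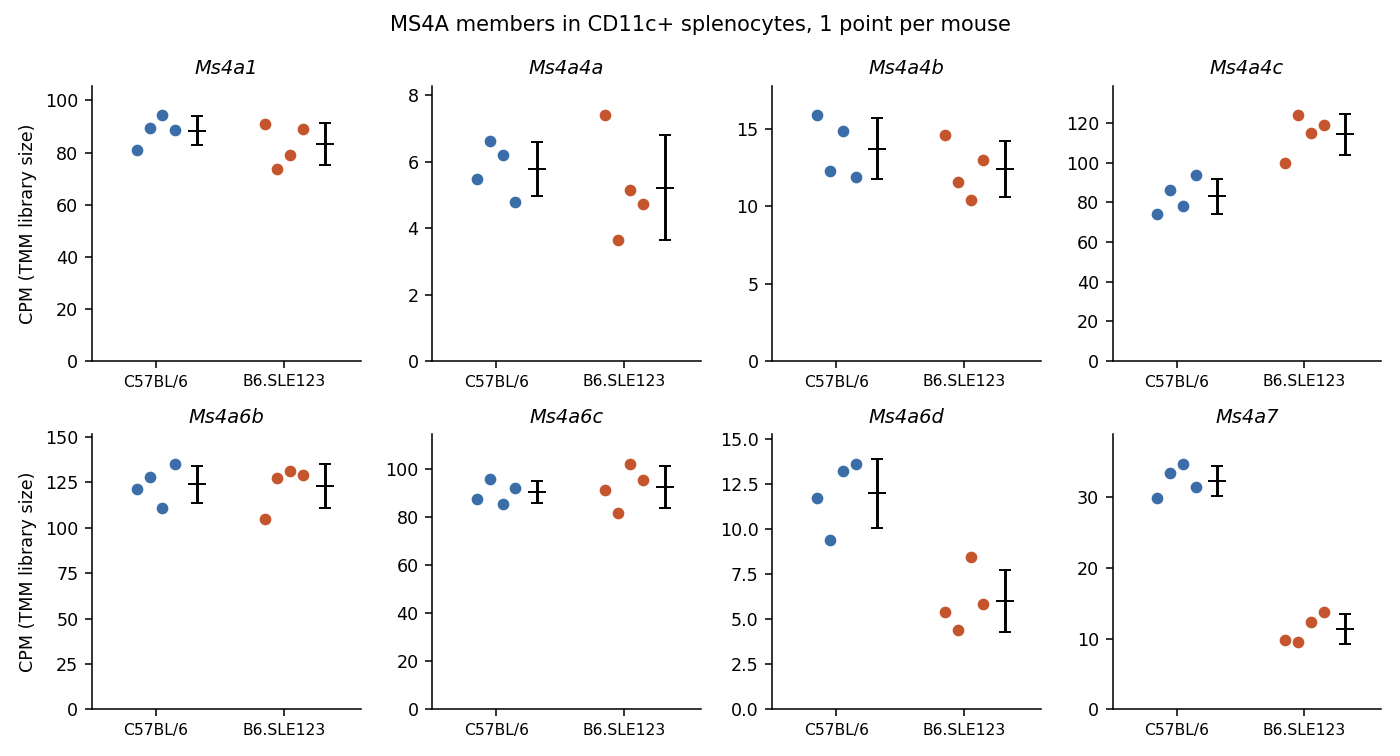
CPM (y axis) of the 8 MS4A members in each mouse (x axis, strain), with 1 point per mouse and the mean and SD of 4 mice as a black bar; each panel has its own y axis from 0. The strains separate for Ms4a7, Ms4a6d and Ms4a4c, and overlap for the other 5 members.

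A mouse had 25761789 to 32931045 counts in the C57BL/6 group and 25563070 to 37367094 in the B6.SLE123 group, and no 2 mice of a strain were as alike as sampling noise would make them (chi-square per degree of freedom at least 4.96). For the labelled cell type, dendritic cells, all 8 genes of a marker list were present. They summed to 23700 to 27400 CPM in C57BL/6 mice and 29300 to 30700 CPM in B6.SLE123 mice. Most of this came from Cd74 and H2-Ab1 of antigen presentation. Their means were 11170 and 5636 CPM in C57BL/6 mice and 13240 and 6834 CPM in B6.SLE123 mice. The sum thus mainly follows these 2 genes and does not measure how many cells were dendritic. Other lineages were measurable too. Beside the counts of every list here and below, 26.6% of all genes were lower and 26.7% higher. A red pulp macrophage list of 12 genes summed to 10800 to 13700 CPM in C57BL/6 mice and 1710 to 3190 CPM in B6.SLE123 mice, and all 12 genes were lower (median log2 fold change -2.44). In bulk RNA, fewer cells of a type and less RNA per cell cannot be told apart.

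In mm10, 11 genes with an Ms4a symbol in the table lie on chromosome 19 between Ms4a15, which starts at 10978307, and Ms4a6d, which ends at 11604849. Ms4a1 (chr19:11249675-11266241) and Ms4a7 (chr19:11321039-11336146) are on the minus strand. Ms4a4a (chr19:11375523-11392790), Ms4a4c (chr19:11404770-11427246), Ms4a4b (chr19:11443553-11467055), Ms4a6c (chr19:11469366-11482192) and Ms4a6b (chr19:11516512-11531256) follow on the plus strand, and Ms4a6d (chr19:11586604-11604849) is again on the minus strand. Several members are close copies of each other. Over their whole coding sequence of 678 bases Ms4a4b and Ms4a4c are 91.7% identical, whereas Ms4a4a and Ms4a4c share 65.4% of aligned bases. Ms4a6b is 85.0% identical to Ms4a6c and 80.6% to Ms4a6d, and Ms4a6c and Ms4a6d share 77.0%. Ms4a1 is at 52.0% to 58.3% with the other members and Ms4a7 at 49.6% to 58.9%. Reads from identical stretches can be lost or assigned to the wrong copy, so the share of 50-base stretches also found in another gene's transcripts was counted. It was 10.5% for Ms4a6c, 8.19% for Ms4a4c, 3.57% for Ms4a6b, 2.54% for Ms4a6d, 2.4% for Ms4a4b and 1.15% for Ms4a1. It was 0.306% for Ms4a7, and no stretch of Ms4a4a was shared.

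The copies also resemble each other before their RefSeq starts. RefSeq promoter windows (GRCm38.p6, 250 bases before to 50 after a start) were found for 6 of the 8 members, with 2 windows for Ms4a7, and none was used for Ms4a1 and Ms4a6d. Between the windows of Ms4a4b and Ms4a4c 132 bases could be aligned, 88.6% of them identical, and between those of Ms4a6b and Ms4a6c 172 bases, 86.0% identical. The first stretches below are shown because each pair of copies holds a match at the same place, although of these genes only Ms4a4c passed the test between the strains, and the last because Ms4a7 fell most among the members. They run 5′ to 3′ on the gene's strand and overlap no annotated exon. Those of Ms4a4c and Ms4a6b lie inside the gene coordinates given above, since their RefSeq starts do. Capitals mark GAGGAA, the core of the sequence bound by PU.1, in the first pair, and GAAANNGAA, a short form of the interferon regulatory factor (IRF) element, in the second pair and, on the opposite strand, in Ms4a7.
Ms4a4c, chr19:11407551-11407650, plus strand: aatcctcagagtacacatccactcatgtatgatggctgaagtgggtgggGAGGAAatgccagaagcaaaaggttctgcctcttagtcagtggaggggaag
Ms4a4b, chr19:11443445-11443544, plus strand: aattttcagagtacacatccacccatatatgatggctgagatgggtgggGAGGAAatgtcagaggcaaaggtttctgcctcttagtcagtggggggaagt
Ms4a6c, chr19:11469198-11469297, plus strand: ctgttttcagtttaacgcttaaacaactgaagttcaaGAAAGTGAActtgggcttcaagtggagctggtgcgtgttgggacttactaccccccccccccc
Ms4a6b, chr19:11518316-11518415, plus strand: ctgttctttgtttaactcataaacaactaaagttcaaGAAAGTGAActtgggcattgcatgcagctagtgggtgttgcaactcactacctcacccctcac
Ms4a7, chr19:11336147-11336246, minus strand: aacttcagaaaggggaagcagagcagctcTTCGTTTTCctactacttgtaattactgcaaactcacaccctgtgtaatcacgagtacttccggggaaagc

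GAGGAA begins 61 bases before the start of Ms4a4c and 64 bases before that of Ms4a4b. In 1 window of Ms4a7 it begins 43 bases past the start, outside the stretch shown. On either strand 28.3% of the 32851 promoter windows hold these letters. The longer form GAGGAAGT, which contains GAGGAA, stands in 3.2% of windows and in none of the members' 7. GAAANNGAA begins 133 bases before the start of Ms4a6c, 206 before that of Ms4a6b, and 71 and 148 before the starts of Ms4a7, and 8.56% of windows hold it. The octamer ATGCAAAT, held by 1.74% of windows, occurs once, 170 bases before the start of Ms4a4c on the opposite strand. TGAGTCA, the AP-1 element, held by 5.2%, is in no member's window. These matches describe the letters only, and no binding was measured here.

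Among the members known from macrophages, Ms4a7 changed most. Its levels were 29.8, 33.3, 34.6 and 31.3 CPM in the C57BL/6 mice and 9.78, 9.46, 12.3 and 13.8 CPM in the B6.SLE123 mice. Every B6.SLE123 mouse was under the lowest control by a wide margin. The mean fell from 32.2 ± 2.10 to 11.3 ± 2.08 CPM (SD, n = 4 per strain), or by -1.52 on the log2 scale (standard error, SE, 0.11; adjusted p = 1.56e-06 by edgeR).

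Ms4a6d, whose product takes part in macrophage activation, was at 11.7, 9.37, 13.2 and 13.6 CPM in C57BL/6 mice and at 5.38, 4.38, 8.46 and 5.83 CPM in B6.SLE123 mice. The strains did not overlap, although the highest B6.SLE123 mouse, replicate 3, came close to the lowest control, replicate 2. The log2 fold change was -0.99 (SE 0.19, adjusted p = 0.00104 by edgeR), with means of 11.95 ± 1.91 and 6.01 ± 1.74 CPM (SD, n = 4 per strain).

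Ms4a4a, a surface protein of alternatively activated macrophages, was the least abundant member by CPM and did not pass the test. Its levels were 5.49, 6.64, 6.19 and 4.80 CPM in C57BL/6 mice and 7.40, 3.63, 5.15 and 4.72 CPM in B6.SLE123 mice, so the second strain held both the highest and the lowest value. The log2 fold change was -0.15 with a 95% interval from -0.58 to 0.29 (adjusted p = 0.555 by edgeR). Beside these 3 members stood the fall of the red pulp macrophage list given above and that of a marginal zone macrophage list, of which all 5 genes were lower (median -2.10), led by Cd5l, which fell from 485.4 to 89.39 CPM, and Nr1h3, which fell from 171.6 to 32.29 CPM. The part that macrophage content had in the levels of Ms4a7 and Ms4a6d was not tested.

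Of the members known from myeloid cells more broadly, Ms4a4c rose. It was at 74.2, 86.1, 78.2 and 94.0 CPM in C57BL/6 mice and at 100, 124, 115 and 119 CPM in B6.SLE123 mice, with every B6.SLE123 mouse above every control. The mean rose from 83.1 ± 8.78 to 114 ± 10.2 CPM (SD, n = 4 per strain), or by 0.46 on the log2 scale (SE 0.08, adjusted p = 0.000755 by edgeR). A pseudogene, Gm5692, overlaps it on the other strand. The kit was stranded, but whether counting used the strand is not given in the sources used here, so reads of overlapping genes are uncertain. The dendritic cell list rose beside Ms4a4c (8 of 8 genes, median log2 fold change 0.30), and its part in the rise was not tested.

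Ms4a6b, the most abundant member by CPM, was at 121, 128, 111 and 135 CPM in C57BL/6 mice and at 105, 127, 131 and 129 CPM in B6.SLE123 mice. The strains overlapped across nearly their whole range, and B6.SLE123 replicate 1 lay apart from the 3 other mice of its strain. The log2 fold change was -0.01 (95% interval -0.18 to 0.17, adjusted p = 0.936 by edgeR). Its close copy Ms4a6c was at 87.6, 95.8, 85.4 and 92.0 CPM against 91.0, 81.5, 102 and 95.3 CPM. Here too the strains overlapped, and the log2 fold change was 0.04 (95% interval -0.11 to 0.18, adjusted p = 0.677 by edgeR). Antisense transcripts overlap both, Gm19261 for Ms4a6b and BE692007 for Ms4a6c. A monocyte list of 11 genes was lower for 6 of them and higher for none (median -0.30); its summed level was 2750 to 3250 CPM in C57BL/6 mice and 666 to 1020 CPM in B6.SLE123 mice, most of it from Csf1r, the receptor of a macrophage growth factor, which fell from 2324 to 514.6 CPM, followed by Nr4a1, which fell from 287.8 to 156.9 CPM. Csf1r is also expressed by macrophages. The 5 other genes of the list, Ace, Ccr2, Cx3cr1, Ly6c2 and S100a4, did not pass. In C57BL/6 and B6.SLE123 mice Ccr2 was at 54.03 and 44.29 CPM, Cx3cr1 at 48.16 and 44.91 CPM and Ly6c2 at 17.21 and 16.1 CPM.

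Ms4a1, the gene of CD20, was at 80.9, 89.5, 94.3 and 88.6 CPM in C57BL/6 mice and at 90.8, 73.8, 79.0 and 89.1 CPM in B6.SLE123 mice, with overlapping values. The log2 fold change was -0.09 (95% interval -0.25 to 0.07, adjusted p = 0.322 by edgeR). The antisense gene 4930526L06Rik overlaps it. Of 12 other B cell genes, 10 were lower and 1 higher (median log2 fold change -0.64), and their summed level was 1100 to 1210 CPM against 796 to 931 CPM. The most abundant of them differed in direction: Cd22, an inhibitory receptor, was at 252.8 ± 12.4 and 320.1 ± 14.8 CPM and rose, while Cd37, a tetraspanin, was at 221.0 ± 7.83 and 120.2 ± 7.83 CPM and fell (SD, n = 4 per strain).

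Ms4a4b, a modulator of T cell proliferation, was at 15.9, 12.3, 14.9 and 11.9 CPM in C57BL/6 mice and at 14.6, 11.6, 10.4 and 13.0 CPM in B6.SLE123 mice. The strains overlapped, and the log2 fold change was -0.15 (95% interval -0.42 to 0.12, adjusted p = 0.315 by edgeR). Of the 10 T cell genes measured, 1 was lower and 1 higher (median -0.27), the list being led by Cd4, at 258.1 and 295.6 CPM, which some dendritic cells carry as well, and by Cd5, which rose from 19.21 to 27.61 CPM. The list summed to 293 to 340 CPM in C57BL/6 mice and to 299 to 408 CPM in B6.SLE123 mice, and the CD3 genes Cd3d, Cd3e and Cd3g were each under 5 CPM in both strains. Without B6.SLE123 replicate 1, 4 T cell genes were lower, without C57BL/6 replicate 4, 2 were, and without B6.SLE123 replicate 3, 2 were higher. Of 8 NK cell genes 1 was lower and none higher (median -0.19), and 4 were lower without B6.SLE123 replicate 1. They summed to 109 to 140 CPM against 111 to 124 CPM and were led by Klrd1, at 95.21 and 92.79 CPM, and Gzma, at 7.52 and 7.16 CPM.

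Summed over the 8 members, the level was 449 ± 20.7 CPM in C57BL/6 mice and 448 ± 22.5 CPM in B6.SLE123 mice (SD, n = 4 per strain; exact two-sided permutation test, p = 0.8571). Within this sum the shares moved. Ms4a4c made up 18.5% of the members' counts in C57BL/6 mice and 25.6% in B6.SLE123 mice, and Ms4a7 made up 7.2% and 2.5%. Ms4a6b took 27.5% in both strains, and Ms4a6c 20.0% and 20.6%.

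To compare the members with each other, the difference in log2 CPM between 2 members was taken within each mouse and compared between the strains for all 28 pairs. None passed 0.05 after Benjamini-Hochberg adjustment, which with 28 pairs and so few mice is hard to reach. In 12 pairs the strains separated completely, which gave p = 0.0286 in the exact two-sided permutation test, the smallest that 4 mice against 4 allow, and an adjusted p of 0.0667; all of these pairs contained Ms4a7, Ms4a4c or Ms4a6d. The widest was Ms4a4c against Ms4a7, at 1.36 ± 0.17 in C57BL/6 mice and 3.34 ± 0.26 in B6.SLE123 mice (mean log2 difference ± SD, n = 4 per strain). Ms4a4c gained 0.47 on Ms4a6b and 0.43 on Ms4a6c, with complete separation in both. Between the closest copies, Ms4a4b and Ms4a4c, the log2 difference went from -2.59 ± 0.35 to -3.21 ± 0.31 (SD, n = 4 per strain), and the exact permutation p was 0.0857, or 0.1333 adjusted. For Ms4a6d against Ms4a7 the log2 difference changed by 0.51, which did not pass (exact permutation p = 0.0571, adjusted p = 0.1).

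**Figure D2:**
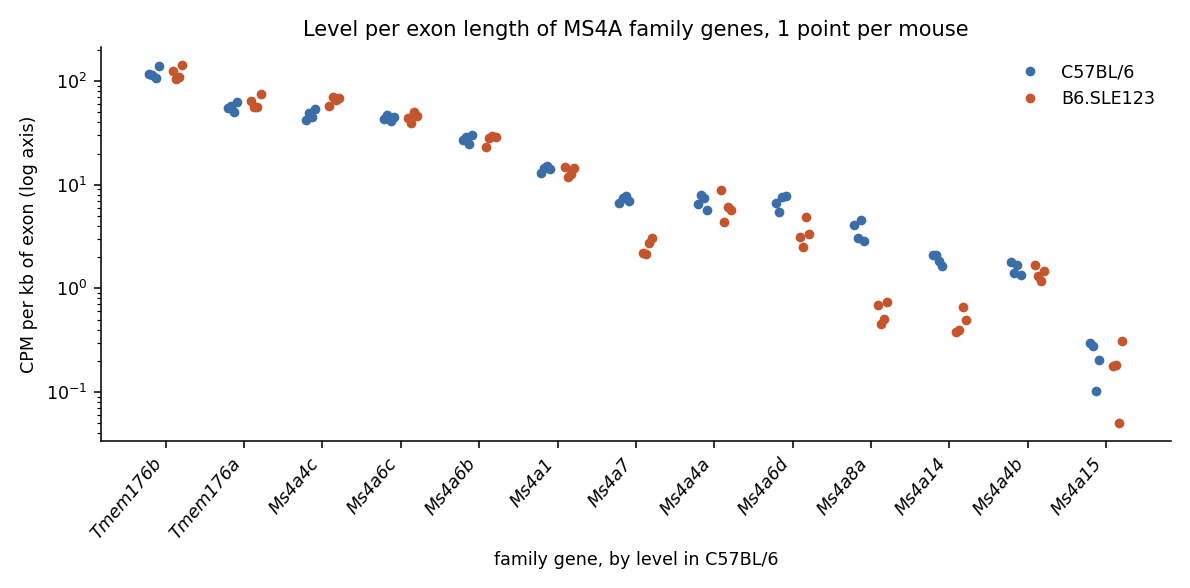
CPM per kb of exon (y axis, log scale) of the 13 MS4A family genes in the table, in order of their level in C57BL/6 mice, with 1 point per mouse. Ms4a4c and Ms4a6c lead the 8 members and Ms4a4b is the lowest of them.

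Levels of different genes were compared per length, as CPM per kb of annotated exon. In C57BL/6 mice Ms4a4c stood highest at 47.5 ± 5.01 and Ms4a6c next at 44.0 ± 2.25 CPM per kb (SD, n = 4), and their mice overlapped. Ms4a6b followed at 27.6 ± 2.31 and Ms4a1 at 14.3 ± 0.892 CPM per kb, each apart from its neighbours. Ms4a7 at 7.24 ± 0.470, Ms4a4a at 6.91 ± 0.966 and Ms4a6d at 6.89 ± 1.10 CPM per kb could not be ordered, and Ms4a4b was lowest at 1.57 ± 0.219 CPM per kb.
In B6.SLE123 mice Ms4a4c at 65.3 ± 5.84 CPM per kb was clear of Ms4a6c at 45.1 ± 4.22 CPM per kb (SD, n = 4). Ms4a7 at 2.55 ± 0.466 CPM per kb came after Ms4a6d at 3.47 ± 1.0 and Ms4a4a at 6.25 ± 1.9 CPM per kb, with neighbours in this run overlapping. The lowest was again Ms4a4b, at 1.41 ± 0.208 CPM per kb.
The scale depends on the transcript: with the longest transcript in place of all exons, Ms4a1 stood at 28.7 ± 1.79 CPM per kb in C57BL/6 mice, no longer apart from Ms4a6b at 28.9 ± 2.41 CPM per kb (SD, n = 4). Ms4a7 at 8.94 ± 0.581 CPM per kb was then apart from Ms4a4a at 6.91 ± 0.966 CPM per kb (SD, n = 4), Ms4a4b was at 2.90, and Ms4a6c at 49.0 came before Ms4a4c at 48.2 CPM per kb. In B6.SLE123 mice Ms4a4b at 2.61 CPM per kb was then no longer apart from Ms4a7 at 3.14 CPM per kb.

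Each member was next set against the markers of the cells it is known from, as its log2 CPM minus the mean log2 CPM of the list in the same mouse, in 12 comparisons. Ms4a1 rose relative to the B cell list, from 0.21 ± 0.02 to 0.70 ± 0.10 (log2 difference ± SD, n = 4 per strain), with every B6.SLE123 mouse above every control (exact two-sided permutation test, p = 0.0286, adjusted p = 0.0343). For Ms4a4b the log2 difference from the T cell list was 0.97 ± 0.06 in C57BL/6 mice and 0.99 ± 0.17 in B6.SLE123 mice. From the NK cell list it was 1.14 ± 0.21 and 1.24 ± 0.25 (SD, n = 4 per strain). These differences between the strains did not pass, with adjusted p = 0.7714 and 0.561 by the exact permutation test. CPM is not scaled by length, so such a difference does not rank a member against its list. Ms4a4c, Ms4a6b and Ms4a6c rose relative to the monocyte list, by 1.46, 0.99 and 1.03 on the log2 scale.
Relative to the red pulp macrophage list, all 6 myeloid members rose: Ms4a4c by 2.71, Ms4a6c by 2.28, Ms4a6b by 2.24, Ms4a4a by 2.07, Ms4a6d by 1.24 and Ms4a7 by 0.73 on the log2 scale. Ms4a7 and Ms4a6d thus fell less than the mean of this list. In all, 10 of the 12 comparisons had an adjusted p of 0.0343 by the exact permutation test. The lists themselves changed in mean log2 CPM, by -2.25 (red pulp macrophage), -1 (monocyte) and -0.59 (B cell). An unchanged gene would also rise relative to such a list, so these tests cannot show a change of a member itself. The sizes depended on how a list was summarised. Relative to the median of the red pulp macrophage genes, the change was 0.11 for Ms4a7, which then did not pass (adjusted p = 0.249, exact permutation test), and 0.618 for Ms4a6d. Relative to the summed CPM of the monocyte list the change was 1.71 for Ms4a6b and 1.75 for Ms4a6c. Relative to the median of that list it was smaller, 0.704 for Ms4a6b and 0.748 for Ms4a6c.

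**Figure D3:**
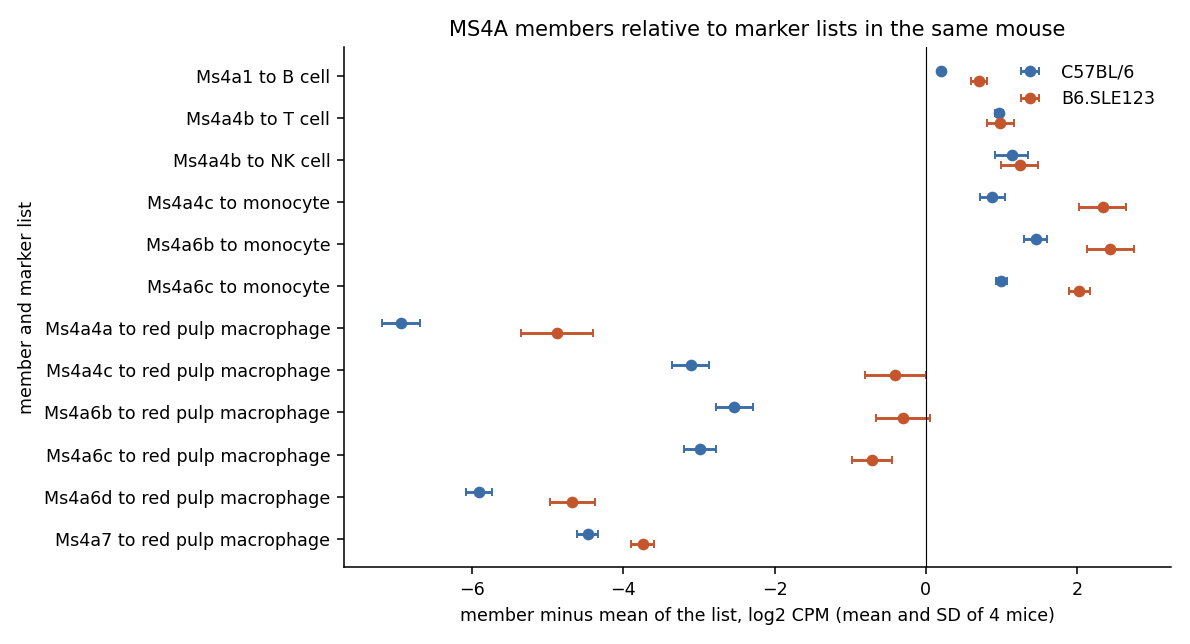
Difference in log2 CPM between a member and the mean of a marker list in the same mouse (x axis, mean and SD of 4 mice) for 12 pairs of member and list (y axis). Both strains lie together for Ms4a4b against the T cell and NK cell lists, and B6.SLE123 lies to the right in the other 10 pairs.

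A list of 13 further family genes was looked up, and 5 were in the table. The table had already been filtered, so absence from it does not show that a gene was silent. Ms4a8a and Ms4a14, which flank Ms4a1 on the minus strand, had the largest falls of the family. Ms4a8a, a gene known from alternatively activated macrophages, was at 7.34, 5.49, 8.23 and 5.16 CPM in C57BL/6 mice and at 1.23, 0.806, 0.917 and 1.34 CPM in B6.SLE123 mice. The strains were far apart, and the log2 fold change was -2.63 (SE 0.21, adjusted p = 2.64e-06 by edgeR). Ms4a14 was at 8.59, 8.48, 7.50 and 6.62 CPM against 1.55, 1.61, 2.69 and 2.01 CPM, a log2 fold change of -1.99 (SE 0.18, adjusted p = 4.88e-06 by edgeR). Both rest on few reads, with 30 to 39 counts for Ms4a8a and 49 to 91 for Ms4a14 in B6.SLE123 mice.
Ms4a15 had 3 to 14 counts in a mouse, too few to show a difference (log2 fold change -0.32, 95% interval -1.38 to 0.75). Tmem176a and Tmem176b, relatives on chromosome 6 that overlap each other and encode ion channels of dendritic cells, had log2 fold changes of 0.15 (adjusted p = 0.206 by edgeR) and 0.02 (adjusted p = 0.888). Per length, Tmem176b was at 119 ± 13.8 CPM per kb in C57BL/6 mice and 120 ± 16.9 in B6.SLE123 mice, and Tmem176a was at 56.5 ± 5.53 and 62.8 ± 8.66 CPM per kb (SD, n = 4 per strain), in the range of Ms4a4c. By the longest transcript Tmem176a was at 94.9 and 105 CPM per kb, above Ms4a4c at 48.2 and 66.3 CPM per kb. Of the 11 Ms4a genes on chromosome 19, 4 were lower, 1 was higher and 6 did not pass, where 26.6% of all genes were lower and 26.7% higher.

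**Figure D4:**
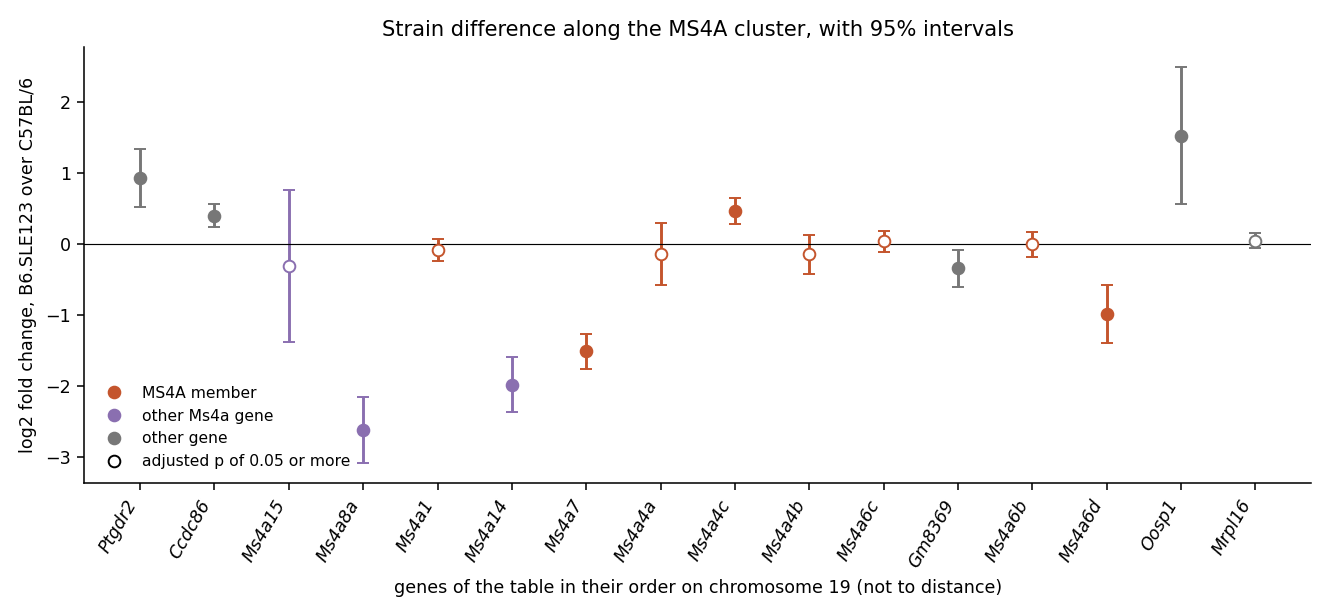
Log2 fold change of B6.SLE123 over C57BL/6 (y axis, with 95% intervals) for the 11 Ms4a genes and their nearest neighbours in the table, in their order on chromosome 19 (x axis, not to distance); filled points passed the test and open points did not. Lower genes lie on both sides of Ms4a4c, the 1 Ms4a gene that was higher.

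Along the chromosome the changes did not form 1 run. Ms4a8a, Ms4a14 and Ms4a7 were lower, with Ms4a1, which did not pass, between the first pair; Ms4a4c was higher between Ms4a4a and Ms4a4b, which did not pass; and Ms4a6d was lower at the far end. Gm8369, between Ms4a6c and Ms4a6b, was at 10.2 CPM in C57BL/6 mice and 8.04 CPM in B6.SLE123 mice (log2 fold change -0.35, adjusted p = 0.0245 by edgeR), and over 369 aligned coding bases it is 88.1% identical to Ms4a4c. Before the cluster, Ptgdr2, a prostaglandin D2 receptor, rose from 1.05 to 1.97 CPM and Ccdc86 from 21.99 to 28.86 CPM. After it, Oosp1 was called higher at levels of 0.109 and 0.328 CPM, and Mrpl16, of the mitochondrial ribosome, was at 23.38 and 24.05 CPM and did not pass. Of the 38 other genes of the table within 1 Mb of the cluster, 9 were lower, 10 higher and 19 did not pass. Their median log2 fold change was -0.04. Over all genes 26.6% were lower and 26.7% higher, so these counts are near the shares of the table.

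For each member the genes with the most similar profile were sought among 10620 genes with a mean of at least 100 counts. Likeness was measured as the root mean square (RMS) difference of log2 CPM over the 8 mice, after each gene was centred on its mean. For Ms4a7 they were Acp2, a lysosomal acid phosphatase (RMS 0.07), Atp13a2, a lysosomal transporter (0.07), and Rilpl1 (0.09). The nearest to Ms4a6d were Ick (0.13), Psen2, which encodes presenilin 2 (0.14), and Fosl2, an AP-1 subunit (0.14).
Ms4a4c was nearest to Med30, a Mediator subunit (RMS 0.05), Kit, the stem cell factor receptor (0.07), and Cep57l1 (0.07). For Ms4a4a the nearest was Cx3cr1, the fractalkine receptor (RMS 0.09), before Nupr1 and Ldlrad3 (both 0.13).
For Ms4a1 the nearest were Pgm2, Zfp444 and Hsbp1 (RMS 0.04 to 0.05), for Ms4a6b Usp11, H2-Ob and Dqx1 (each 0.05), and for Ms4a6c Emp3, Tmem154 and Zfp748 (each 0.05). Ms4a4b was nearest to H2bc21 (RMS 0.08), Lima1 (0.09) and Cox10 (0.10). No member appeared among the 3 nearest genes of another, and Ms4a6b and Ms4a6c were 0.12 apart by this measure.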

How the data were processed

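RNA of CD11c+ splenocytes of 4 C57BL/6 and 4 B6.SLE123 mice had been sequenced from stranded libraries. After trimming with cutadapt and alignment to mm10 with STAR, the authors deposited raw featureCounts counts of protein-coding genes. The deposited table also holds the authors' DESeq2 comparison (mean normalised signal, log2 fold change, test score, p-value and fold change as a ratio), which was not used.

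Groups were taken from sample titles, since the strain number in the genotype labels rises from mouse to mouse. The mice are separate animals. Counts were scaled by TMM (trimmed mean of M values) and compared by the quasi-likelihood F test of edgeR 4.0.16 in R 4.3.3. Benjamini-Hochberg adjustment was over all 13786 genes. The authors had already filtered the deposited table, and no further filter on low counts was applied. Log2 CPM used a prior count of 2. The test was tried on simulated data (200 of 13786 genes altered), where 86.2% of 1.5-fold and 95.2% of 2-fold changes were recovered, and 7 of 195 calls were false. In the data 53.4% of genes were called, far more than were altered there, so these rates need not hold for them. Alternatives were other scalings, a minimum of 10 counts in every sample, DESeq2 1.42.0, limma-voom (limma 3.58.1), a prior count of 0.5, other list summaries, another length, a replicate block and leaving out each mouse.

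Members and marker lists were chosen with earlier results of these data known. Genes named were all members, family genes in the table, the 3 nearest profiles per member, the 2 most abundant genes per list and the 2 nearest neighbours on each side; Gm8369 and the CD3 genes were added after their values were seen. Coordinates of all 13 family genes match GENCODE M21, which gave exons and coding sequences; identity was computed on coding bases. Counting limits precision at low counts.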

Additional observations from a re-analysis of the deposited data

Results flagged for a closer look

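One mouse lay apart from the others of its strain in 1 member. For Ms4a6b, B6.SLE123 replicate 1 was at 6.71 log2 CPM, where the median of its strain was 7.00, and its gap to the nearest mouse was 0.84 of the strain's range. It was the 1 such mouse in the 26 groups of 4 mice looked at, and chance marks about 1 group in 20. Without this mouse the log2 fold change of Ms4a6b was 0.059 (adjusted p = 0.449 by edgeR), and the gene did not pass the test with it or without it.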

How the results depend on the processing

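The counts of members called lower (2) and higher (1) and of members without overlap (3) stayed the same under every alternative run. The called genes summed over all marker lists (63) lay between 62 and 73 and those of the neighbours (19) between 16 and 20, and the calls over the whole table lay between 6496 and 7443. Of 194 values of single family genes over 15 alternative settings, 183 kept direction and call, 10 turned sign and 1 passed the test anew; the cause was not tested. Those that turned were near 0. Ms4a6b was 0.009 with upper-quartile factors and ranged from -0.058 to 0.059 with each mouse left out, Ms4a6c from -0.016 to 0.084, Ms4a15 from -0.668 to 0.006 and Tmem176b from -0.08 to 0.092. The difference of Ms4a4b from the log2 summed CPM of the T cell list changed by -0.307 and of the NK cell list by -0.065. Relative to the mean log2 CPM of the lists, the changes of Ms4a4b were 0.018 (T cell) and 0.107 (NK cell). With each mouse left out, chosen after seeing the data and given without a test, these changes from the mean ranged from -0.058 to 0.084 and from -0.003 to 0.2. Those of pairs that turned ranged from -0.012 to 0.227 (Ms4a1 and Ms4a4a), -0.053 to 0.127 (Ms4a1 and Ms4a4b), -0.199 to 0.005 (Ms4a1 and Ms4a6b), -0.127 to 0.103 (Ms4a4a and Ms4a4b), -0.426 to 0.005 (Ms4a4a and Ms4a6b) and -0.119 to 0.027 (Ms4a6b and Ms4a6c).

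The labels give nothing that same-numbered mice of the strains share beyond the number. The correlations of their deviations over 10620 genes were 0.076, 0.231, 0.096 and 0.122, all positive. Those of mice with different numbers ranged from -0.244 to 0.098. C57BL/6 replicate 1 correlated slightly better with B6.SLE123 replicate 3 (0.079) than with its own number. Whether same-numbered mice shared a batch was not tested. With the number as a replicate block, 7183 genes were called against 7356, the members' calls stayed at 2 lower and 1 higher, 3 T cell, 3 NK cell and 4 type 2 dendritic cell genes were lower against 1, 1 and 2, no type 1 gene was lower against 1, 2 T cell genes and 2 basophil and mast cell genes were higher against 1 each and 1 type 2 gene against 0, and Tmem176a passed with a log2 fold change of 0.147 (adjusted p = 0.0419 by edgeR). Upper-quartile factors gave 0 type 1 genes lower, 1 type 2 gene higher and 2 plasmacytoid genes higher, and DESeq2 gave 1 type 2 gene higher. Depth limits Ms4a15 and, in B6.SLE123 mice, Ms4a8a and Ms4a14.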

Other observations

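Other marker lists were measured beside the MS4A members. Of 8 genes of type 1 conventional dendritic cells, 6 were higher and 1 lower in B6.SLE123 mice (median log2 fold change 0.84), led by Wdfy4, needed for cross-presentation, which rose from 1851 to 3344 CPM, and Irf8, the factor of this lineage, which rose from 707.9 to 987.3 CPM. Of 7 genes of type 2 conventional dendritic cells, 2 were lower and none higher (median -0.40), with 4 lower and 1 higher without B6.SLE123 replicate 1, and 1 higher without C57BL/6 replicate 4. The most abundant of them, Sirpa, an inhibitory receptor also carried by macrophages, fell from 1784 to 950.5 CPM, and Irf4 was at 104.7 and 109.6 CPM and did not pass (adjusted p = 0.509 by edgeR). The 8 core dendritic cell genes were all higher (median 0.30). Of 7 plasmacytoid dendritic cell genes 3 were lower and 1 higher (median -0.15), the most abundant being Tcf4, at 119.8 and 107.7 CPM, and Bst2, at 73.01 and 79.75 CPM, neither of which passed. Of 6 plasma cell genes 2 were lower and 2 higher (median 0.63): Xbp1 fell from 145.7 to 110.9 CPM and Jchain rose from 24.50 to 52.66 CPM. From 7 basophil and mast cell genes 3 were in the table, with Kit higher, Hdc at 4.41 and 5.69 CPM (adjusted p = 0.0764 by edgeR) and 2 of the 3 not passing. With single mice left out, 0 to 2 type 1 genes were lower, 1 gene of the basophil and mast cell list more was higher without C57BL/6 replicate 2, and 2 and 3 plasmacytoid genes were higher without C57BL/6 replicate 3 and without B6.SLE123 replicate 4. These counts describe gene lists, and 53.4% of all genes were called.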
